A study of Homo sapiens with 18 samples.

Results

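The genes described here are 10 members of the transforming growth factor beta (TGF-beta) pathway, the ligands TGFB1 and TGFB2, the latent binding protein LTBP1, the receptors TGFBR1, TGFBR2 and TGFBR3, the signal transducers SMAD2, SMAD3 and SMAD4, and the nuclear repressor SKIL. They were taken by gene symbol from a matrix of 62754 genes, and all 10 were among the 15167 genes with enough counts to be tested. RNA was sequenced from EA.hy926 cells, an established line made by fusing human umbilical vein endothelial cells with a lung carcinoma line. Cells were treated with transfection reagent and no siRNA (Mock), with 10 nM non-targeting siRNA (siNT) or with 10 nM of a pool of siRNAs against ELMO1 (siELMO1). They were lysed 48 h later, before poly(I:C) (0 h), or 24 h after the addition of 1 µg/ml poly(I:C), a double-stranded RNA mimic that activates TLR3. The paper describes an overnight starvation of the transfected cells in medium with little serum before poly(I:C) was added. Each of the 6 conditions had 3 libraries, which the study describes as biological replicates.

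TGF-beta is secreted as a dimer that stays bound to its own propeptide, and LTBP proteins tie this latent complex to fibrillin and fibronectin in the extracellular matrix until integrins, thrombospondin or proteases release it. The free ligand binds the type II receptor TGFBR2, which recruits and phosphorylates the type I receptor TGFBR1; the coreceptor TGFBR3 (betaglycan) presents ligand, TGFB2 above all. Activated TGFBR1 phosphorylates SMAD2 and SMAD3, which enter the nucleus with SMAD4, and in endothelial cells the pathway is known for inducing matrix and cytoskeletal genes and for its part in endothelial to mesenchymal transition.

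LTBP1 showed the largest difference between conditions: it was 5.62-fold higher in siELMO1 than in siNT at 0 h and 8.28-fold higher at 24 h. Against Mock the difference was smaller, with log2 fold changes of 1.18 at 0 h and 1.67 at 24 h. LTBP1 was itself lower in siNT than in Mock, with log2 fold changes of -1.32 and -1.38. TGFBR2, TGFBR3 and TGFB2 were higher after either siRNA than in Mock at both times. TGFB1 was higher in siELMO1 than in both controls at 0 h and 24 h, by less at 24 h. Its call against siNT at 24 h was lost without any 1 of 4 libraries. SMAD3 was lower in siELMO1 than in both controls before poly(I:C) and higher than in both after it.

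The start sites of LTBP1 are shown first, because most of its counts lay on transcripts of 1 of them. LTBP1 lies on the plus strand of chromosome 2 (GRCh38, chr2:32946953-33399509). RefSeq (GRCh38.p14) gives windows, each with 250 bases before and 50 after a start, for the first start and for inner starts, near which the shorter transcripts begin. In the sequences below, letters are in capitals where a match to TGACGTCA (the cyclic AMP response element), TGANTCA (an AP-1 site) or GTCTG (the core of SMAD elements, CAGAC on the other strand) was found on either strand.
LTBP1, first start, chr2:32946703-32947002, plus strand: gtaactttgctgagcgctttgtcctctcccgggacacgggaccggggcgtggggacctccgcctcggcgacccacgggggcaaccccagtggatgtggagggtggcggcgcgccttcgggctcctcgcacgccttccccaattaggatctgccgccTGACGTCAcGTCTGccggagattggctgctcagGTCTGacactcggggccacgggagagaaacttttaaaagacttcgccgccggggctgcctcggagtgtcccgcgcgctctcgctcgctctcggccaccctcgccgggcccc
LTBP1, inner start, chr2:33134346-33134645, plus strand: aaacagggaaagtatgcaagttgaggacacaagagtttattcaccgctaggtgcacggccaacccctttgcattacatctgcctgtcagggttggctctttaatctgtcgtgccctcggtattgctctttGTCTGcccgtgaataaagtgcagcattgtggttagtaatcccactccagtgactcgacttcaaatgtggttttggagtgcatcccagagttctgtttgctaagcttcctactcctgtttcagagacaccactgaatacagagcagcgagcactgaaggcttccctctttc
The window of the first start held 1 TGACGTCA, which 1.85% of the 35116 windows of all genes hold, and 2 matches to GTCTG, which 45.3% hold. The inner window held 1 GTCTG and neither of the other motifs. TGFBR2, whose RNA was the most abundant of the 10 per length in 5 of the 6 conditions, is on chromosome 3 (chr3:30606601-30694142, plus strand), and its window held 1 TGANTCA, found in 7.71% of all windows.
TGFBR2, chr3:30606351-30606650, plus strand: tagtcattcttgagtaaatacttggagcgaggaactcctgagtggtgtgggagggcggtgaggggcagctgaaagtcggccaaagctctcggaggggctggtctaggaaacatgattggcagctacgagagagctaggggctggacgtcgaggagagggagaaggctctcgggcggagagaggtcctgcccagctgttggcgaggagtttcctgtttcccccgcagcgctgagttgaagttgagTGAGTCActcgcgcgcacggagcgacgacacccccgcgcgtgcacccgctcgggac
TGFB2, chr1:218345086-218345385, plus strand: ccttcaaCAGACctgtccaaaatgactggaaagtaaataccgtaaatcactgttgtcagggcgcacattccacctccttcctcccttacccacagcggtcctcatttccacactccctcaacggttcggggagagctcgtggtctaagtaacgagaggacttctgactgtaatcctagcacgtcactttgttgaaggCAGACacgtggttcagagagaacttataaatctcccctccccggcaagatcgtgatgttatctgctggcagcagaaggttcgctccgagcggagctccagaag
TGFB1, chr19:41353873-41354172, minus strand: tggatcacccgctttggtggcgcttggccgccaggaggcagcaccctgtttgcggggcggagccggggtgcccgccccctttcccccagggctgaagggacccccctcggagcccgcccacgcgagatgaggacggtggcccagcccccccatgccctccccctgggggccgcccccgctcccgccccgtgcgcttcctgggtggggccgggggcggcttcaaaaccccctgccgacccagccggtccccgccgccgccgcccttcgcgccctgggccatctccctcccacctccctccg
TGFB2, shown with TGFBR2 because both were higher after either siRNA, held 2 GTCTG and no other motif searched. TGFB1 is shown because it was higher in siELMO1 than in both controls, and its window held none of the motifs. The 10 genes had 25 windows in RefSeq, several of them overlapping; the palindromic SMAD element GTCTAGAC, found in 0.202% of all windows, was in none of the 25. TGACGTCA was also in 1 window of SKIL, and TGANTCA in 1 inner window of SMAD3. A match says only that these letters are present, and binding was not measured.

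Library totals ran from 40374756 to 73850946 estimated counts. ELMO1, the targeted gene, had 0.155 to 3.58 CPM (counts relative to the library total, scaled by TMM factors) over all libraries, with counts of 10 to 22 in the siELMO1 libraries and 80 to 237 in the others. It was lower in siELMO1 than in siNT at 0 h (log2 fold change -3.11, SE 0.28, adjusted p = 2.74e-08) and at 24 h (log2 fold change -3.64, SE 0.29, adjusted p = 1.43e-08). Of 12 endothelial markers, 10 reached 1 CPM in every condition, among them CDH5 and PECAM1, while EMCN and CLDN5 stayed under 1 CPM in every library. Summed endothelial marker levels were 2036 to 2156 CPM in siELMO1 at 0 h against 1472 to 1540.3 in siNT and 1446 to 1534 in Mock, and whether this difference has a part in those below was not tested. Of 10 epithelial markers, the keratins KRT7, KRT8 and KRT18 were high, while CDH1, KRT19, ESRP1, SFTPC and SFTPB had too few counts to be tested. A mean of at least 1 CPM was reached by 4 of the 10 in Mock at 0 h and by 3 in each other condition. Only FAP and RGS5 of 8 fibroblast and mural markers reached a mean of 1 CPM in any condition, and CDH1 and PTPRC stayed under 1 CPM in every library. Summed epithelial markers were 1517 to 1539 CPM in Mock, 1880 to 1912 in siNT and 2100 to 2224 in siELMO1 at 0 h. Of 6 leukocyte markers, 2 had a mean of at least 1 CPM in every condition. The 6 summed to 54.1 to 77.4 CPM in Mock, 35.8 to 40.1 in siNT and 67.3 to 100.3 in siELMO1 at 0 h. At 24 h the leukocyte sums were 219 to 285 in Mock, 140 to 180 in siNT and 199 to 242 in siELMO1. The summed fibroblast and mural markers, almost all FAP and RGS5, were at 146 to 154 CPM in siELMO1 at 0 h against 75.9 to 85.4 in siNT and 88.9 to 94.2 in Mock. At 24 h they were at 119.9 to 134 in siELMO1 against 67.5 to 87.8 in siNT and 51.7 to 66.1 in Mock. The part of these marker levels in the results below was not tested. Libraries 2 and 3 of siELMO1 at 0 h held 4.02% and 3.95% of their counts on mitochondrially encoded genes, against 1.31% to 2.42% in the other 16, and library 1 of that condition differed more from its replicates (a chi-square of 70.2 and 78.5 per gene) than the libraries of any other pair of replicates did (10.1 to 29.1). In what follows, "library 1 alone" means that siELMO1 at 0 h was represented by its library 1, an alternative chosen after the libraries were seen to differ.

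Per length (TPM, computed from transcript counts divided by transcript length), the order of the 10 genes was led by TGFBR2 and TGFB1 in every condition. In Mock at 0 h TGFB1 had 256 ± 4.06 TPM (SD, n = 3) and TGFBR2 229 ± 3.15, and their libraries did not overlap. SKIL, at 105 ± 3.59, and SMAD3, at 101 ± 4.21, followed and did overlap. TGFBR1 came next with 38.6 ± 0.0710 TPM, before SMAD4 with 24.8 ± 0.473; SMAD2 (16.7 ± 0.934), LTBP1 (15.8 ± 1.01) and TGFBR3 (14.5 ± 0.479) lay close together, and TGFB2 was last with 1.89 ± 0.121. At 24 h in siELMO1 the level of TGFBR2 had reached 829 ± 20.5 TPM, with 292 ± 11.5 for TGFB1, 170.0 ± 7.76 for SMAD3 and 61.6 ± 10.1 for SKIL. LTBP1 came next there with 38.2 ± 10.3 TPM, overlapping TGFBR3 (32.2 ± 0.197), whereas in siNT at 24 h, with 4.62 ± 2.42, it was above TGFB2 alone. TGFB2 was last in all 6 conditions, although its level in siELMO1 at 0 h (5.17 ± 1.24 TPM) was above that in Mock.

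**Figure D1:**
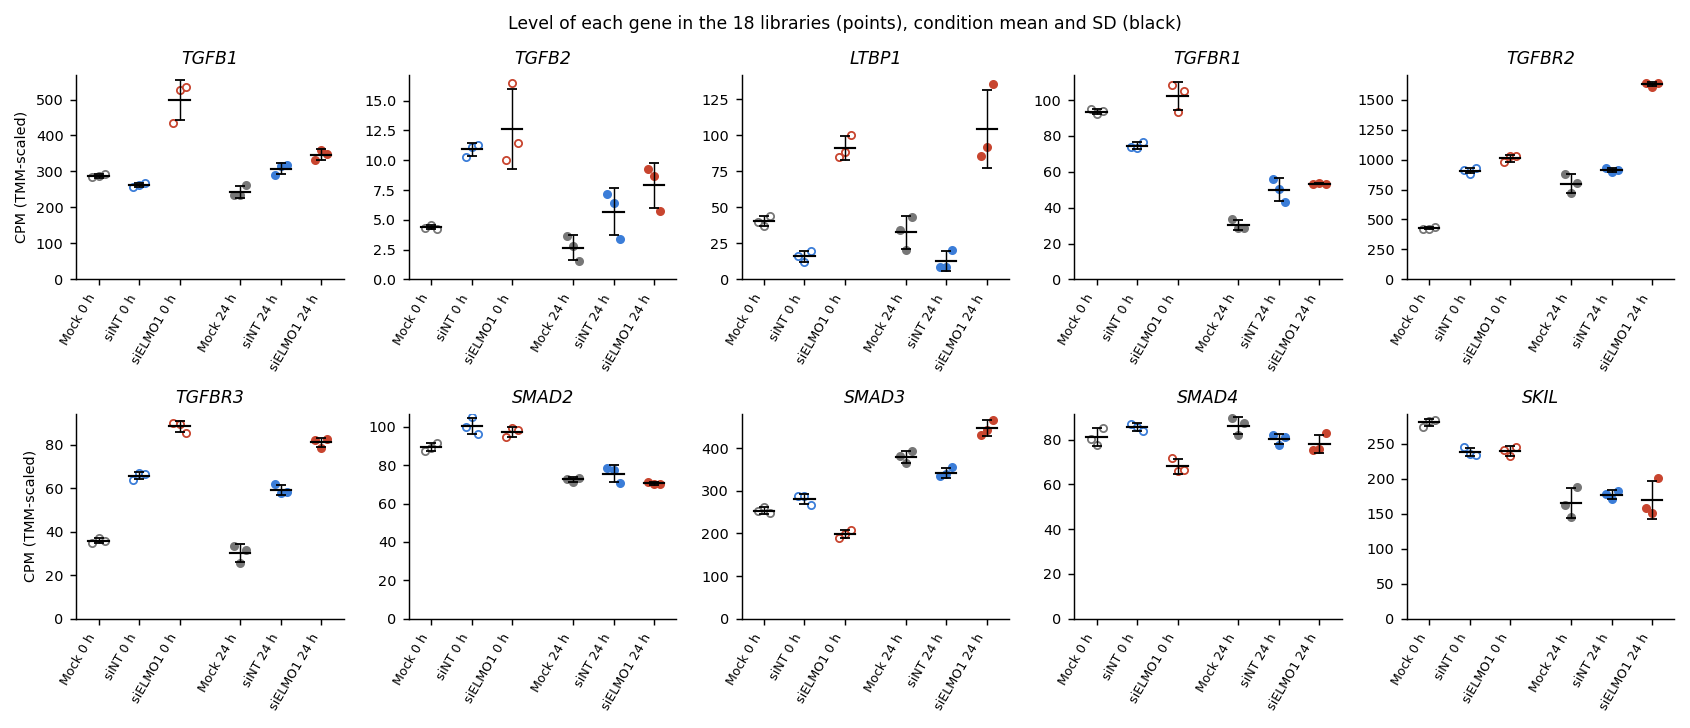
Level of each of the 10 genes in CPM (TMM-scaled) in the 18 libraries, with the mean and SD of each condition in black (n = 3); open points are 0 h and filled points 24 h, and each panel has its own linear axis from 0. LTBP1 is highest in the siELMO1 libraries and lowest in siNT, TGFBR2 is lowest in Mock at 0 h, and SMAD3 is lowest in siELMO1 at 0 h and highest in siELMO1 at 24 h.

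The first question was how ELMO1 knockdown changed these genes before poly(I:C). Against siNT, 5 of the 10 genes were higher in siELMO1 at 0 h (31.3% of all genes tested were) and 2 were lower (31.3%). Against Mock, 6 were higher (27.9% of all genes) and 3 lower (22.4%). The median log2 fold change of the 10 was 0.18 against siNT and 0.46 against Mock, beside 0.00093 and 0.041 over all genes tested. No test was made of the list, which was chosen with earlier results of these data known. siNT against Mock, a comparison that shares the siNT libraries with one above and the Mock libraries with the other, had 5 higher (27.6%) and 3 lower (24.0%).

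LTBP1 stood at 40.1, 37.2 and 43.8 CPM in the Mock libraries at 0 h, 16.3, 12.3 and 20.0 in siNT and 84.7, 88.6 and 100.2 in siELMO1. The 3 conditions did not overlap, with siNT lowest and siELMO1 highest. LTBP1 was higher in siELMO1 than in siNT (log2 fold change 2.49, SE 0.30, adjusted p = 1.12e-06) and than in Mock (log2 fold change 1.18, SE 0.28, adjusted p = 0.00220), and lower in siNT than in Mock (log2 fold change -1.32, SE 0.29, adjusted p = 0.00111). The level in Mock thus lay between the siRNA conditions, and the size of the siELMO1 difference depended on the control it was set against. With library 1 alone, the difference from Mock was 1.03 (adjusted p = 0.0544).

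TGFB1, the main TGF-beta ligand of endothelium, stood at 284, 287 and 293 CPM in Mock, 256, 262 and 269 in siNT and 434, 526 and 534 in siELMO1 at 0 h. All 3 siELMO1 libraries were above all control libraries, with library 1 the lowest of them. TGFB1 was 1.90-fold higher than in siNT (log2 fold change 0.92, SE 0.07, adjusted p = 1.99e-09) and 1.73-fold higher than in Mock (log2 fold change 0.79, SE 0.07, adjusted p = 2.88e-08). Between siNT and Mock the log2 fold change was -0.13 (adjusted p = 0.113); it passed the test without siELMO1 library 1 of 0 h or Mock library 1 of 24 h (-0.17 to -0.13, adjusted p = 0.0300 to 0.0431) and with the replicate number as a block (-0.13, adjusted p = 0.0423). The locus of TGFB1 overlaps 4 coding genes on the other strand, and the limit on strand given for TGFB2 below applies to it too.

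TGFB2, a ligand of low abundance here, stood at 4.32, 4.59 and 4.27 CPM in Mock, 10.3, 11.1 and 11.3 in siNT and 10.0, 16.5 and 11.4 in siELMO1 at 0 h. Both siRNA conditions lay above Mock and overlapped each other. TGFB2 was higher than in Mock in siNT (log2 fold change 1.31, SE 0.27, adjusted p = 6.41e-04) and in siELMO1 (log2 fold change 1.52, SE 0.28, adjusted p = 1.76e-04), while the difference between the siRNA conditions was 0.21, with a 95% interval from -0.32 to 0.73. On the other strand the locus of TGFB2 overlaps the long non-coding gene TGFB2-AS1; the library kit keeps strand, but whether the counting used it is not stated, and without strand their reads cannot be told apart.

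Among the receptors, TGFBR2, the ligand-binding type II receptor, stood at 424, 423 and 435 CPM in Mock, 917, 882 and 926 in siNT and 977, 1026 and 1027 in siELMO1 at 0 h. Both siRNA conditions lay far above Mock, and siELMO1 lay just above siNT with no overlap. The log2 fold change against Mock was 1.09 in siNT and 1.24 in siELMO1 (adjusted p = 3.56e-11 and 3.06e-12). Against siNT it was 0.15 in siELMO1 (SE 0.05, adjusted p = 0.0193), a call that was lost without siNT library 2 or siELMO1 library 2 or 3 of 0 h (log2 fold change 0.13 to 0.14, adjusted p = 0.0553 to 0.0754). It also missed the threshold with library 1 alone (0.11, adjusted p = 0.223) or with no filter on low counts (0.13, adjusted p = 0.0935).

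TGFBR3, the coreceptor, followed the same order with clearer steps: 34.9, 37.1 and 35.5 CPM in Mock, 63.9, 67.1 and 66.6 in siNT and 90.1, 89.8 and 85.6 in siELMO1 at 0 h. The conditions did not overlap. TGFBR3 was higher in siELMO1 than in siNT (log2 fold change 0.43, SE 0.07, adjusted p = 4.88e-05) and than in Mock (log2 fold change 1.30, SE 0.07, adjusted p = 8.20e-11). TGFBR1, the type I receptor kinase, had another order, with 94.9, 92.1 and 93.7 CPM in Mock, 73.6, 73.5 and 76.6 in siNT and 109, 93.5 and 105 in siELMO1. The siELMO1 libraries overlapped Mock (log2 fold change 0.13, adjusted p = 0.180) and lay above siNT (log2 fold change 0.46, SE 0.08, adjusted p = 6.07e-05), which was itself lower than Mock (log2 fold change -0.33, SE 0.08, adjusted p = 0.00188).

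Among the signal transducers, SMAD3 stood at 252, 262 and 247 CPM in Mock, 288, 288 and 267 in siNT and 189, 198 and 208 in siELMO1 at 0 h. The siELMO1 libraries were below every control library. SMAD3 was lower than in siNT (log2 fold change -0.50, SE 0.05, adjusted p = 9.42e-08) and than in Mock (log2 fold change -0.36, SE 0.05, adjusted p = 1.06e-05). It was 0.15 higher in siNT than in Mock on the log2 scale (adjusted p = 0.0206), a call lost without any 1 of the Mock libraries at 0 h, siNT library 1 or 2 at 0 h, or Mock library 1 at 24 h (0.091 to 0.13, adjusted p = 0.0630 to 0.208). It was also lost with library totals or no filter (0.086 to 0.13, adjusted p = 0.0851 to 0.147).

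SMAD4, the shared partner of SMAD2 and SMAD3, stood at 80.3, 77.4 and 85.4 CPM in Mock, 87.1, 85.8 and 83.8 in siNT and 71.9, 65.8 and 66.5 in siELMO1. It too was below every control library in siELMO1, by a smaller step (log2 fold change -0.33, SE 0.05, adjusted p = 3.56e-05, against siNT, and log2 fold change -0.25, SE 0.05, adjusted p = 7.84e-04, against Mock). An unnamed coding gene on the same strand overlaps SMAD4, so part of either count may belong to the other. SMAD2 varied little, with library values of 70.0 to 105 CPM over all 6 conditions. At 0 h it was 0.12 higher in siELMO1 than in Mock (adjusted p = 0.0346) and 0.17 higher in siNT than in Mock (adjusted p = 0.00582). The first call was lost without any 1 of the Mock libraries at 0 h, siELMO1 library 2 or 3 at 0 h, or Mock library 1 at 24 h (0.077 to 0.12, adjusted p = 0.0813 to 0.252). The second was lost without Mock library 1 or 2 at 0 h (0.12 to 0.13, adjusted p = 0.0589 to 0.0811). The difference between siELMO1 and Mock was 0.044 (adjusted p = 0.623) with library 1 alone, and also missed the threshold under 6 other scalings, filters or choices of samples. That between siNT and Mock missed it with library totals (0.11, adjusted p = 0.0530).

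SKIL, which represses SMAD-driven transcription and is itself a TGF-beta target, stood at 274, 283 and 283 CPM in Mock, 245, 235 and 234 in siNT and 241, 232 and 245 in siELMO1 at 0 h. Both siRNA conditions were slightly below Mock and overlapped each other. The log2 fold change between them was 0.0077, with a 95% interval from -0.17 to 0.18. Against Mock it was -0.23 in siNT (adjusted p = 0.0371) and -0.23 in siELMO1 (adjusted p = 0.0443). The first call was lost without any 1 of the 3 siNT libraries at 0 h (-0.26 to -0.22, adjusted p = 0.0534 to 0.0940). The second was lost without any 1 of 10 libraries (-0.25 to -0.20, adjusted p = 0.0503 to 0.122), namely all 6 siNT and siELMO1 libraries and Mock libraries 2 and 3 of 0 h, and siNT libraries 1 and 2 of 24 h. With library 1 alone the second was -0.25 (adjusted p = 0.163).

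**Figure D2:**
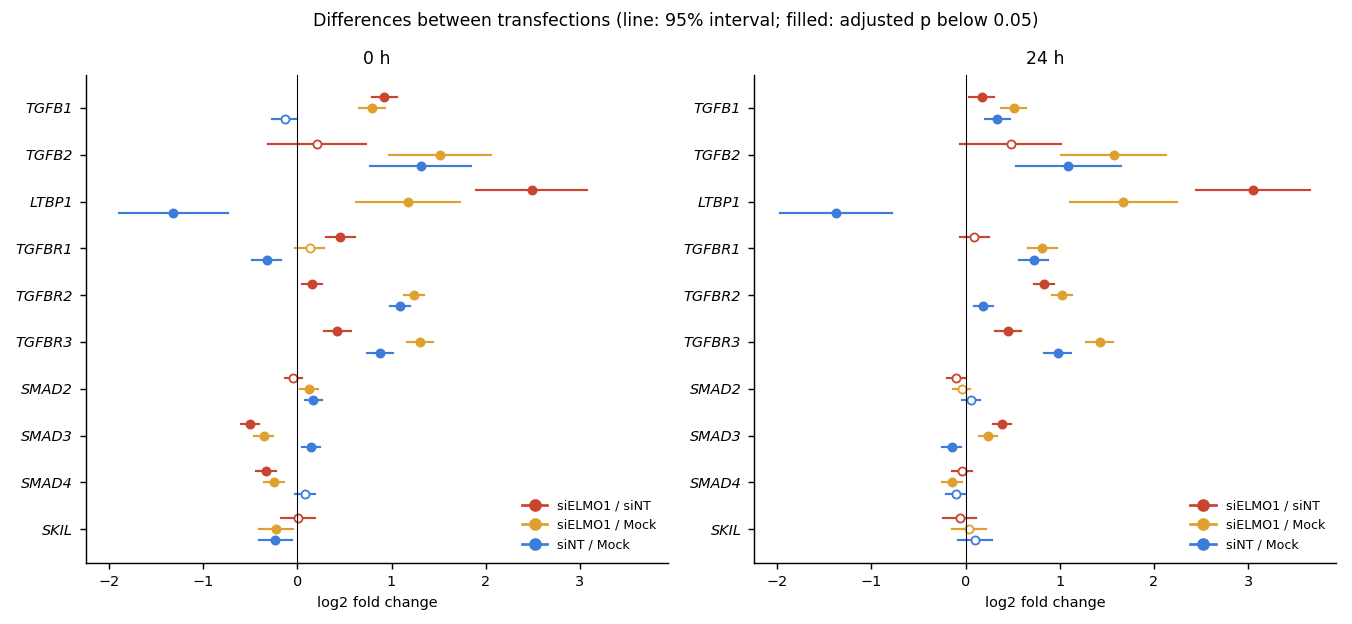
Log2 fold change of each gene between transfections at 0 h (left) and 24 h (right), for siELMO1 against siNT (red), siELMO1 against Mock (orange) and siNT against Mock (blue), with 95% intervals; filled points passed adjusted p under 0.05. LTBP1 lies far to the right for siELMO1 and to the left for siNT against Mock, and SMAD3 changes side in the siELMO1 comparisons between 0 h and 24 h.

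After 24 h of poly(I:C), 5 of the 10 genes were higher in siELMO1 than in siNT (26.0% of all genes tested were) and 0 were lower in the edgeR test (26.5%; none of the 5 others had an unadjusted p under 0.05 except SMAD2). Against Mock, 7 were higher (21.6%) and 1, SMAD4, lower (22.0%). In siNT against Mock, 5 were higher (25.2%) and 2 lower (24.9%). In bulk RNA of this kind, a change in the share of cells in some state cannot be told apart from a change in RNA per cell. The paper reports widespread death of siNT cells after poly(I:C), with much less in Mock and in siELMO1. It also reports a cell cycle arrest in siELMO1 cells before poly(I:C). The siNT libraries of 24 h enter the comparisons with siNT at 24 h and the siNT response to poly(I:C). The part of cell death or of arrest in the differences described here was not tested.

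LTBP1 stood at 34.5, 20.5 and 43.2 CPM in Mock, 8.86, 8.46 and 20.4 in siNT and 85.9, 91.7 and 136 in siELMO1 at 24 h. The spread within each condition was wider than at 0 h. The siELMO1 libraries were above all others, while the lowest Mock library and the highest siNT library nearly met. LTBP1 was higher in siELMO1 than in siNT (log2 fold change 3.05, SE 0.31, adjusted p = 3.10e-07) and than in Mock (log2 fold change 1.67, SE 0.29, adjusted p = 1.39e-04), and lower in siNT than in Mock (log2 fold change -1.38, SE 0.30, adjusted p = 0.00103).

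TGFBR2 at 24 h stood at 879, 718 and 804 CPM in Mock, 927, 897 and 915 in siNT and 1640.4, 1609 and 1641 in siELMO1. The siELMO1 libraries were far above the others, whereas siNT was just above Mock (log2 fold change 0.19, adjusted p = 0.00701, and adjusted p = 0.0502 with only the groups compared). The difference between siELMO1 and siNT had grown from 0.15 at 0 h to 0.84 (SE 0.05, adjusted p = 1.28e-09), and that between siELMO1 and Mock was 1.03 (adjusted p = 2.53e-10). TGFBR3 kept the order of 0 h, with 33.5, 25.4 and 31.7 CPM in Mock, 62.0, 57.7 and 58.4 in siNT and 82.0, 78.6 and 82.6 in siELMO1. It was higher in siELMO1 than in siNT (log2 fold change 0.45, SE 0.07, adjusted p = 4.79e-05) and than in Mock (log2 fold change 1.43, SE 0.07, adjusted p = 2.03e-10).

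SMAD3 at 24 h stood at 382, 365 and 393 CPM in Mock, 334, 339 and 356 in siNT and 432, 443 and 467 in siELMO1. The siELMO1 libraries, lowest at 0 h, were now above every control library. SMAD3 was higher than in siNT (log2 fold change 0.38, SE 0.05, adjusted p = 5.21e-06) and than in Mock (log2 fold change 0.24, SE 0.05, adjusted p = 8.43e-04). It was 0.15 lower in siNT than in Mock (adjusted p = 0.0199), which was lost without Mock library 3 or siNT library 1 or 2 of 24 h (-0.14 to -0.12, adjusted p = 0.0619 to 0.0804). The log2 fold change of SMAD4 against Mock was -0.15 in siELMO1 (adjusted p = 0.0353). The libraries of these conditions overlapped, and the call was lost without Mock library 1 or 3 or siELMO1 library 1 or 2 of 24 h (-0.14 to -0.12, adjusted p = 0.0872 to 0.125). It was lost, too, with no filter or only the groups compared (-0.14, adjusted p = 0.0860 to 0.123).

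TGFB1 at 24 h stood at 234, 234 and 262 CPM in Mock, 289.6, 314 and 319 in siNT and 332, 361 and 348 in siELMO1. Both siRNA conditions were above Mock. TGFB1 was higher in siELMO1 than in Mock (log2 fold change 0.51, SE 0.07, adjusted p = 9.14e-06), and 0.17 higher than in siNT (adjusted p = 0.0402), a call lost without siNT library 1 or 2 or siELMO1 library 2 or 3 of 24 h (0.13 to 0.19, adjusted p = 0.0587 to 0.164), and with library totals (0.13, adjusted p = 0.0913). TGFB2 stood at 3.61, 2.83 and 1.56 CPM in Mock, 7.16, 6.44 and 3.43 in siNT and 9.26, 8.69 and 5.73 in siELMO1. TGFB2 was higher than in Mock in siELMO1 (log2 fold change 1.57, SE 0.28, adjusted p = 2.21e-04) and in siNT (log2 fold change 1.09, SE 0.29, adjusted p = 0.00411), the latter with overlapping libraries. TGFBR1 stood at 33.5, 28.8 and 28.6 CPM in Mock, 56.3, 50.3 and 43.4 in siNT and 53.2, 53.7 and 53.0 in siELMO1, so that both siRNA conditions were above Mock and overlapped each other (siELMO1 against siNT 0.09, 95% interval from -0.06 to 0.25). SMAD2 and SKIL did not pass the test in any of the 3 comparisons at 24 h, with log2 fold changes of -0.10 to 0.10. Without siNT library 3 of 24 h, or with library totals, SMAD2 was called lower in siELMO1 than in siNT (-0.15, adjusted p = 0.0112 to 0.0113). Without siELMO1 library 3 of 24 h SKIL was called lower in siELMO1 than in siNT (-0.20, adjusted p = 0.0375).

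The second question was how poly(I:C) changed the 10 genes within each transfection. In Mock, 2 were higher at 24 h than at 0 h (30.7% of all genes tested) and 6 lower (29.6%). In siNT, 2 were higher (28.6%) and 4 lower (25.2%), and in siELMO1 3 were higher (28.0%) and 5 lower (26.9%). The median log2 fold changes of the 10 were -0.28 in Mock, -0.26 in siNT and -0.30 in siELMO1, beside 0.0066, 0.014 and -3.55e-05 over all genes tested. Each transfection was compared with its own 0 h libraries, and time after transfection differs between 0 h and 24 h along with poly(I:C), so the effects of poly(I:C) and of a further 24 h in culture cannot be told apart.

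TGFBR1 and SMAD2 fell in all 3 transfections, as did SKIL. TGFBR1 fell most in Mock (log2 fold change -1.63, SE 0.08, adjusted p = 8.81e-12), where its libraries went from 94.9, 92.1 and 93.7 to 33.5, 28.8 and 28.6 CPM, and by less in siELMO1 (log2 fold change -0.94, SE 0.08, adjusted p = 1.54e-08) and siNT (log2 fold change -0.58, SE 0.08, adjusted p = 7.51e-06). The log2 fold changes of SKIL were -0.76 in Mock, -0.43 in siNT and -0.50 in siELMO1, and those of SMAD2 were -0.30, -0.41 and -0.47. TGFB2 also fell in all 3, with log2 fold changes of -0.72 in Mock (adjusted p = 0.0360), -0.94 in siNT (adjusted p = 0.00736) and -0.67 in siELMO1 (adjusted p = 0.0436). The Mock call was lost without Mock library 1 or 2 of 0 h or 2 or 3 of 24 h (-0.77 to -0.45, adjusted p = 0.0513 to 0.179). The siELMO1 call was lost without any 1 of the siNT libraries of 0 h, siELMO1 library 2 or 3 of 0 h, or 2 or 3 of 24 h (-0.74 to -0.44, adjusted p = 0.0516 to 0.218). It was -0.35 (adjusted p = 0.469) with library 1 alone, and was also lost with DESeq2, filterByExpr and no filter.

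SMAD3 rose in all 3 transfections, most in siELMO1 (log2 fold change 1.18, SE 0.05, adjusted p = 1.57e-12), less in Mock (log2 fold change 0.58, SE 0.05, adjusted p = 1.56e-08) and least in siNT (log2 fold change 0.29, SE 0.05, adjusted p = 9.51e-05). TGFBR2 rose in Mock (log2 fold change 0.91, SE 0.05, adjusted p = 1.15e-10) and in siELMO1 (log2 fold change 0.69, SE 0.05, adjusted p = 6.09e-09), and in siNT its log2 fold change was 0.0077, with a 95% interval from -0.10 to 0.11. TGFB1 fell in Mock (log2 fold change -0.24, SE 0.07, adjusted p = 0.00539) and in siELMO1 (log2 fold change -0.52, SE 0.07, adjusted p = 4.13e-06) and rose in siNT (log2 fold change 0.23, SE 0.07, adjusted p = 0.00871). SMAD4 rose in siELMO1 alone among the calls (log2 fold change 0.20, SE 0.05, adjusted p = 0.00494), a call lost with library 1 alone or with library totals as the scale (0.11 to 0.13, adjusted p = 0.0691 to 0.237). SMAD4 in siNT passed the test with upper-quartile factors or only the groups compared (-0.14 to -0.11, adjusted p = 0.0380 to 0.0497). TGFBR3 fell in Mock alone among the calls (log2 fold change -0.25, SE 0.07, adjusted p = 0.00675), with log2 fold changes of -0.15 and -0.13 in siNT and siELMO1. TGFBR3 passed the test in siNT without Mock library 1 or 2 of 24 h (adjusted p = 0.0122 to 0.0456) and in siELMO1 without Mock library 2 of 24 h (adjusted p = 0.0296). It passed in both with upper-quartile factors or library totals, and in siNT with only the groups compared (adjusted p = 0.0147 to 0.0445). LTBP1 did not pass the test in any transfection, with values of -0.30, -0.36 and 0.19; without siNT library 3 of 24 h, its highest siNT library, the value in siNT was -0.91 (adjusted p = 0.0117).

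**Figure D3:**
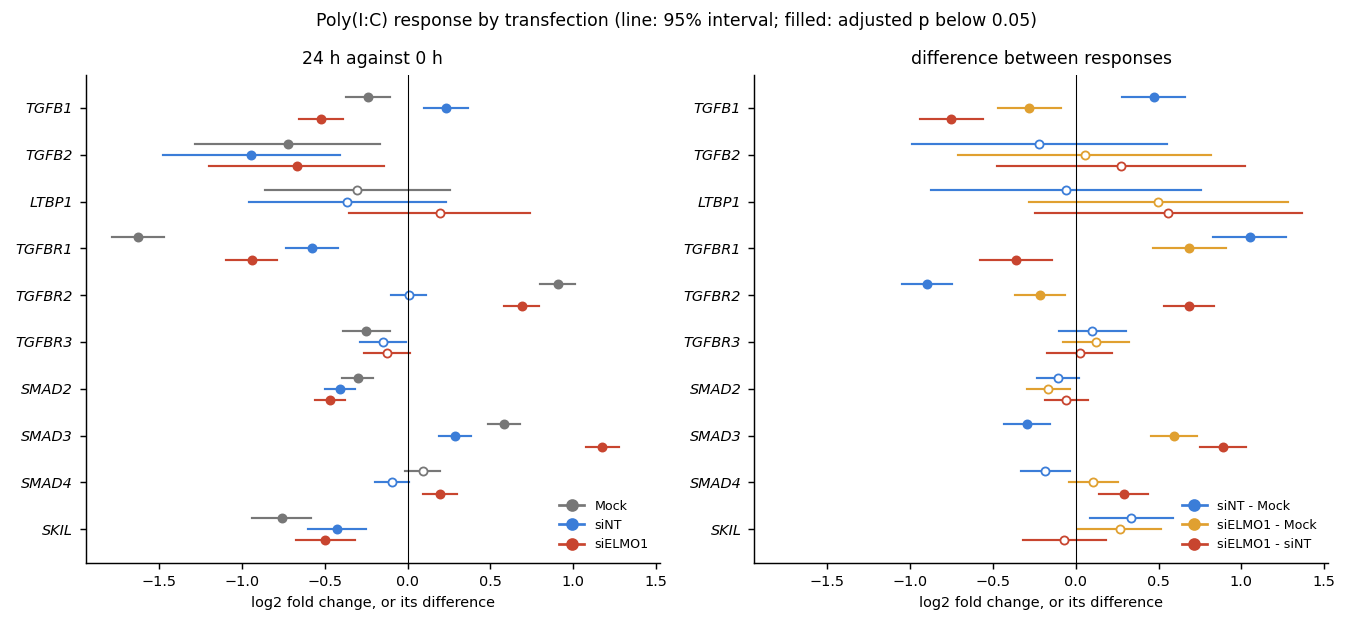
Left, log2 fold change of each gene at 24 h of poly(I:C) against 0 h in Mock (grey), siNT (blue) and siELMO1 (red); right, the difference between these responses for each pair of transfections, both with 95% intervals and filled points where adjusted p was under 0.05. TGFBR2 rises in Mock and siELMO1 and lies at 0 in siNT, TGFB1 lies right of 0 only in siNT, and TGFBR1 falls furthest in Mock.

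The responses were then compared with each other by an interaction term. Between siELMO1 and siNT, 3 of the 10 genes had a more positive response in siELMO1 (16.7% of all genes tested) and 2 a more negative one (17.8%). SMAD3 (difference 0.89, SE 0.07, adjusted p = 2.91e-08), TGFBR2 (difference 0.68, SE 0.08, adjusted p = 1.89e-06) and SMAD4 (difference 0.29, SE 0.08, adjusted p = 0.00627) were the 3, and TGFB1 (difference -0.75, SE 0.10, adjusted p = 9.48e-06) and TGFBR1 (difference -0.36, SE 0.11, adjusted p = 0.0167) the 2. The value of SMAD4 was 0.23 (adjusted p = 0.0723) with library 1 alone, and that of TGFBR1 was -0.27 (adjusted p = 0.0529) without siNT library 1 of 24 h and -0.33 (adjusted p = 0.0608) with no filter. LTBP1 had a difference of 0.56 (adjusted p = 0.320), which was 1.10 (adjusted p = 0.0215) without siNT library 3 of 24 h.

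Between siNT and Mock, 2 genes had a more positive response in siNT (14.9% of all genes tested) and 2 a more negative one (16.0%). TGFBR1 (difference 1.05, SE 0.11, adjusted p = 1.78e-06) and TGFB1 (difference 0.47, SE 0.10, adjusted p = 0.00113) were more positive, and TGFBR2 (difference -0.90, SE 0.08, adjusted p = 1.37e-07) and SMAD3 (difference -0.29, SE 0.07, adjusted p = 0.00391) more negative. Between siELMO1 and Mock, 2 were more positive (13.8%) and 2 more negative (14.6%). SMAD3 (difference 0.59, SE 0.07, adjusted p = 6.61e-06) and TGFBR1 (difference 0.69, SE 0.11, adjusted p = 1.85e-04) had the positive differences. The negative ones, TGFB1 (difference -0.28, SE 0.10, adjusted p = 0.0371) and TGFBR2 (difference -0.22, SE 0.08, adjusted p = 0.0418), lay near the threshold. The first was lost without any 1 of 8 libraries (-0.28 to -0.22, adjusted p = 0.0560 to 0.102), namely all 3 Mock libraries and siELMO1 libraries 2 and 3 of 0 h, and Mock library 3 and siELMO1 libraries 1 and 3 of 24 h. With library 1 alone it was -0.045 (adjusted p = 0.783). The second was lost without any 1 of 12 (-0.22 to -0.12, adjusted p = 0.0526 to 0.186), namely all 3 Mock libraries, siNT libraries 1 and 3 and siELMO1 libraries 2 and 3 of 0 h, and Mock libraries 1 and 3 and all 3 siELMO1 libraries of 24 h. With library 1 alone it was -0.13 (adjusted p = 0.380). Both differences were also lost with RLE size factors, library totals, no filter and only the groups compared. Some uncalled values passed under alternatives. SKIL passed between siNT and Mock without Mock library 3 or siELMO1 library 2 or 3 of 24 h (0.33 to 0.44, adjusted p = 0.0105 to 0.0407) and under 6 other settings, DESeq2 and limma-voom among them (0.34 to 0.42, adjusted p = 0.0132 to 0.0427). It passed between siELMO1 and Mock without Mock library 3 of 24 h (0.37, adjusted p = 0.0310). SMAD4 passed between siNT and Mock without siELMO1 library 1 of 0 h or Mock library 2 of 24 h (-0.22 to -0.18, adjusted p = 0.0412 to 0.0439) and with the replicate block (-0.19, adjusted p = 0.0466). SMAD2 passed between siELMO1 and Mock without siELMO1 library 1 of 0 h or siNT library 3 of 24 h (-0.19 to -0.17, adjusted p = 0.0358 to 0.0389). Each of these 3 contrasts shares libraries with the other 2. For TGFBR2, TGFB1, SMAD3 and TGFBR1 the responses of all 3 transfections differed from each other in these tests.

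At the level of transcripts, 49 of the transcripts of the 10 genes were among the 54867 tested. In siELMO1, 2 of the 49 were higher than in siNT at 0 h (5.13% of all transcripts tested) and 1 lower (5.31%). Against Mock at 0 h 4 were higher (2.66%) and 1 lower (3.13%). At 24 h, 5 were higher than in siNT (2.86%) and 0 lower (2.38%), and 7 were higher than in Mock (2.05%) and 0 lower (1.41%). The estimated counts behind these tests divide each gene's reads among overlapping transcripts.

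LTBP1-203, the only transcript annotated from the first start, carried 93.4% of the LTBP1 counts over all libraries. It stood at 15.1, 9.82 and 19.2 CPM in siNT and 84.5, 83.4 and 92.2 in siELMO1 at 0 h, and at 8.53, 5.03 and 18.5 and 79.9, 86.6 and 131 at 24 h. It encodes the long form of the protein. LTBP1-203 was higher in siELMO1 than in siNT at 0 h (log2 fold change 2.56, SE 0.42, adjusted p = 0.00105) and at 24 h (log2 fold change 3.21, SE 0.44, adjusted p = 4.39e-04). The 11 transcripts from inner starts together had 71 to 150 counts in siNT and 195 to 445 in siELMO1 at 0 h, and their share of LTBP1 was 5.32% to 20.0% and 3.64% to 8.85%, so that most LTBP1 counts belonged to the first start in both conditions.

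TGFBR2 was split between TGFBR2-201 and TGFBR2-202, which share a start and differ by 1 exon of 75 bases in the coding sequence, exon 2 of TGFBR2-202 (GRCh38, chr3:30623199-30623273, plus strand). The sequence is given because the receptor isoforms differ by it alone.
TGFBR2-202, exon 2: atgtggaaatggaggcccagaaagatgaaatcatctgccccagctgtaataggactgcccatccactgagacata
The share of TGFBR2-202 was 42.0% ± 5.34 in Mock, 41.8% ± 3.79 in siNT and 46.6% ± 4.90 in siELMO1 at 0 h, and 51.3% ± 0.560, 44.4% ± 4.71 and 47.6% ± 3.78 at 24 h (SD, n = 3). Neither isoform was a minor one in any condition. Both were higher in siELMO1 than in siNT at 24 h, TGFBR2-201 with log2 fold change 0.78, SE 0.11, adjusted p = 7.42e-04 and TGFBR2-202 with log2 fold change 0.97, SE 0.11, adjusted p = 1.12e-04. Of the other genes, TGFB1 (99.5%), SMAD3 (95.8%), TGFBR3 (93.0%) and TGFB2 (88.9%) had most counts on 1 transcript. The largest transcripts of SMAD4 (70.1%), SKIL (61.9%) and TGFBR1 (55.1%) held smaller majorities, and that of SMAD2 held 46.4%. Shares of the TGFB2, TGFBR1, SKIL, SMAD2 and SMAD4 transcripts were not compared between conditions.

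**Figure D4:**
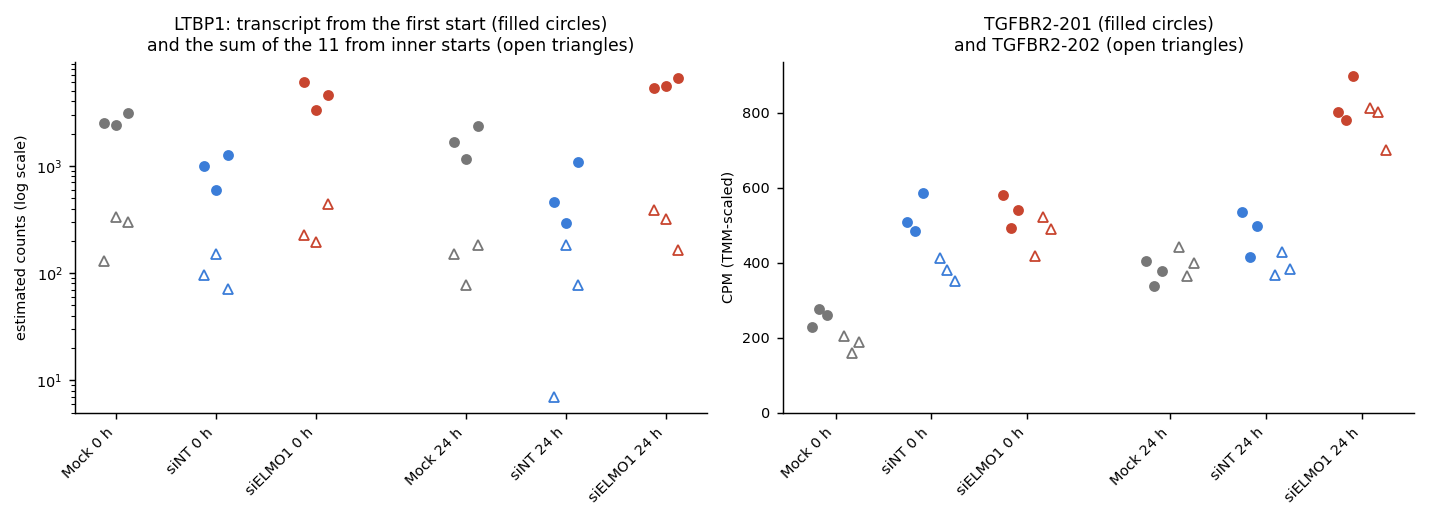
Left, estimated counts (log scale) of the LTBP1 transcript from the first start (filled circles) and of the sum of the 11 from inner starts (open triangles) in each library; right, CPM (linear, from 0) of TGFBR2-201 (filled circles) and TGFBR2-202 (open triangles). The first start holds most LTBP1 counts in every library, and both TGFBR2 isoforms are highest in siELMO1 at 24 h.

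Other genes of the pathway were taken from a list of 50, of which 44 were tested. At 0 h, 23 of the 44 were higher in siELMO1 than in siNT (31.3% of all genes tested were) and 12 lower (31.3%), and their median log2 fold change was 0.23; against Mock 28 were higher (27.9%) and 2 lower (22.4%), with a median of 0.39. siNT against Mock had 23 higher (27.6%) and 11 lower (24.0%). At 24 h, 18 were higher (26.0%) and 14 lower (26.5%) in siELMO1 than in siNT, and 24 higher (21.6%) and 5 lower (22.0%) than in Mock. In siNT against Mock at 24 h, 24 were also higher (25.2%) and 7 lower (24.9%). The medians against Mock at 24 h were 0.25 in siELMO1 and 0.26 in siNT. The lower calls against siNT were thus near the share of all genes, and no list was tested. The list was chosen with earlier results of these data known, so its counts and medians are a description only.

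Of 12 genes of the latent complex and its activation, to which LTBP1 belongs, 8 were higher in siELMO1 than in siNT at 0 h (31.3% of all genes tested were) and 2 lower (31.3%), and 8 were higher (26.0%) and 1 lower (26.5%) at 24 h. THBS1, thrombospondin 1, which can release TGF-beta from its latent complex, stood at 1233, 1124 and 1221 CPM in siNT and 4586, 4999.9 and 4988 in siELMO1 at 0 h (log2 fold change 2.03, SE 0.12, adjusted p = 1.02e-10), and was 6.12-fold higher at 24 h. ITGB8, an integrin subunit that binds the latent complex, stood at 15.6, 14.1 and 15.9 CPM in siNT and 67.8, 69.4 and 63.3 in siELMO1 at 0 h (log2 fold change 2.14, SE 0.20, adjusted p = 3.22e-08). LRRC32, a cell surface anchor of latent TGF-beta, had low levels of 1.74, 2.03 and 2.80 CPM in siNT and 9.41, 8.35 and 9.94 in siELMO1 at 24 h (log2 fold change 2.07, SE 0.29, adjusted p = 1.08e-05). FBN1, the fibrillin to which LTBP proteins bind, was 2.62-fold higher in siELMO1 than in Mock at 0 h and 2.80-fold higher at 24 h. NRROS, another anchor of latent TGF-beta, went the other way against siNT, with 10.8, 11.4 and 9.54 CPM in siNT and 2.54, 3.18 and 2.51 in siELMO1 at 24 h (log2 fold change -1.94, SE 0.14, adjusted p = 3.38e-09). NRROS was itself higher in siNT than in Mock at 0 h (log2 fold change 1.04, adjusted p = 3.63e-06) and at 24 h (log2 fold change 1.74, adjusted p = 1.60e-08). Against Mock at 24 h, 9 of the 12 genes were higher in siELMO1 (21.6% of all genes tested) and 0 lower (22.0%). NRROS was thus not called lower in siELMO1 than in Mock at 24 h.

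The other receptors and coreceptors moved both ways in siELMO1 against siNT, with 4 of 10 higher and 5 lower at 0 h and 4 higher and 4 lower at 24 h, beside the same shares of all genes. Of 19 intracellular regulators, 9 were higher (31.3% of all genes tested) and 5 lower (31.3%) in siELMO1 than in siNT at 0 h. At 24 h, 4 were higher (26.0%) and 8 lower (26.5%). Against Mock, 12 were higher (27.9%) and 0 lower (22.4%) at 0 h, and 10 higher (21.6%) and 2 lower (22.0%) at 24 h. SMAD7, which inhibits the type I receptor and is induced by TGF-beta, fell after poly(I:C) in Mock, from 12.9, 13.3 and 10.5 to 2.57, 2.50 and 2.81 CPM (log2 fold change -2.22, SE 0.13, adjusted p = 8.97e-11), in siELMO1 (log2 fold change -1.82, SE 0.12, adjusted p = 9.21e-10) and in siNT (log2 fold change -1.10, SE 0.12, adjusted p = 5.45e-07). FST, which binds and blocks activin, rose after poly(I:C) in all 3 transfections, most in Mock (log2 fold change 3.45, SE 0.08, adjusted p = 4.06e-16), from 12.2, 11.3 and 11.4 to 128, 136 and 117 CPM. INHBA, which encodes an activin subunit, had lower levels at 0 h after siNT than in Mock (log2 fold change -1.41, SE 0.09, adjusted p = 5.72e-10). It rose after poly(I:C) in siNT (log2 fold change 2.04, SE 0.09, adjusted p = 2.66e-12), in Mock (log2 fold change 1.56, SE 0.09, adjusted p = 3.27e-11) and in siELMO1 (log2 fold change 0.41, SE 0.08, adjusted p = 4.49e-04). With poly(I:C), 16 of the 44 rose (30.7% of all genes tested) and 17 fell (29.6%) in Mock, 18 rose (28.6%) and 9 fell (25.2%) in siNT, and 12 rose (28.0%) and 16 fell (26.9%) in siELMO1.

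Of 34 genes known to respond to TGF-beta in many cell types, 28 were tested. At 0 h, 20 were higher in siELMO1 than in siNT (31.3% of all genes tested were) and 5 lower (31.3%), with a median log2 fold change of 0.64, beside 0.00093 over all genes tested. Against Mock, 21 were higher (27.9%) and 2 lower (22.4%), with a median of 0.56, and in siNT against Mock 8 were higher (27.6%) and 12 lower (24.0%), with a median of -0.20. At 24 h, 18 were higher in siELMO1 than in siNT (26.0%) and 5 lower (26.5%), and 17 higher (21.6%) and 4 lower (22.0%) than in Mock. In siNT against Mock at 24 h, 11 were higher (25.2%) and 8 lower (24.9%). These genes respond to other signals as well, and activity of the pathway was not measured. This list, too, was chosen with earlier results of these data known, so its counts and medians are a description only.

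NEDD9, a focal adhesion scaffold, stood at 13.5, 13.5 and 12.9 CPM in Mock, 4.70, 5.48 and 5.58 in siNT and 19.1, 23.5 and 24.3 in siELMO1 at 0 h (log2 fold change 2.08, SE 0.18, adjusted p = 1.17e-08 between siELMO1 and siNT). ACTA2, smooth muscle actin, stood at 7.04, 9.56 and 9.07 CPM in Mock, 4.55, 4.45 and 4.23 in siNT and 15.7, 18.1 and 16.9 in siELMO1 (log2 fold change 1.93, SE 0.12, adjusted p = 2.45e-10). As with LTBP1, siNT was lowest and siELMO1 highest for both genes, with no overlap. The summed fibroblast and mural markers were also highest in siELMO1 (146 to 154 CPM against 75.9 to 85.4 in siNT), and their part in the levels of these response genes was not tested. PDGFB, a growth factor chain, was higher in siELMO1 than in siNT at 24 h (log2 fold change 2.17, SE 0.17, adjusted p = 1.49e-08) and than in Mock at both times (log2 fold change 1.57 and 1.75). Among those lower in siELMO1 than in siNT at 24 h were HMOX1, heme oxygenase 1 (log2 fold change -1.44, SE 0.08, adjusted p = 3.25e-10), and IL11, a cytokine (log2 fold change -1.44, SE 0.25, adjusted p = 1.31e-04). With poly(I:C), 13 of the 28 rose and 8 fell in Mock, 14 rose and 5 fell in siNT, and 12 rose and 10 fell in siELMO1, beside the shares of all genes given above. The transcription factor JUNB rose in all 3, by 2.68, 1.68 and 1.93 on the log2 scale.

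**Figure D5:**
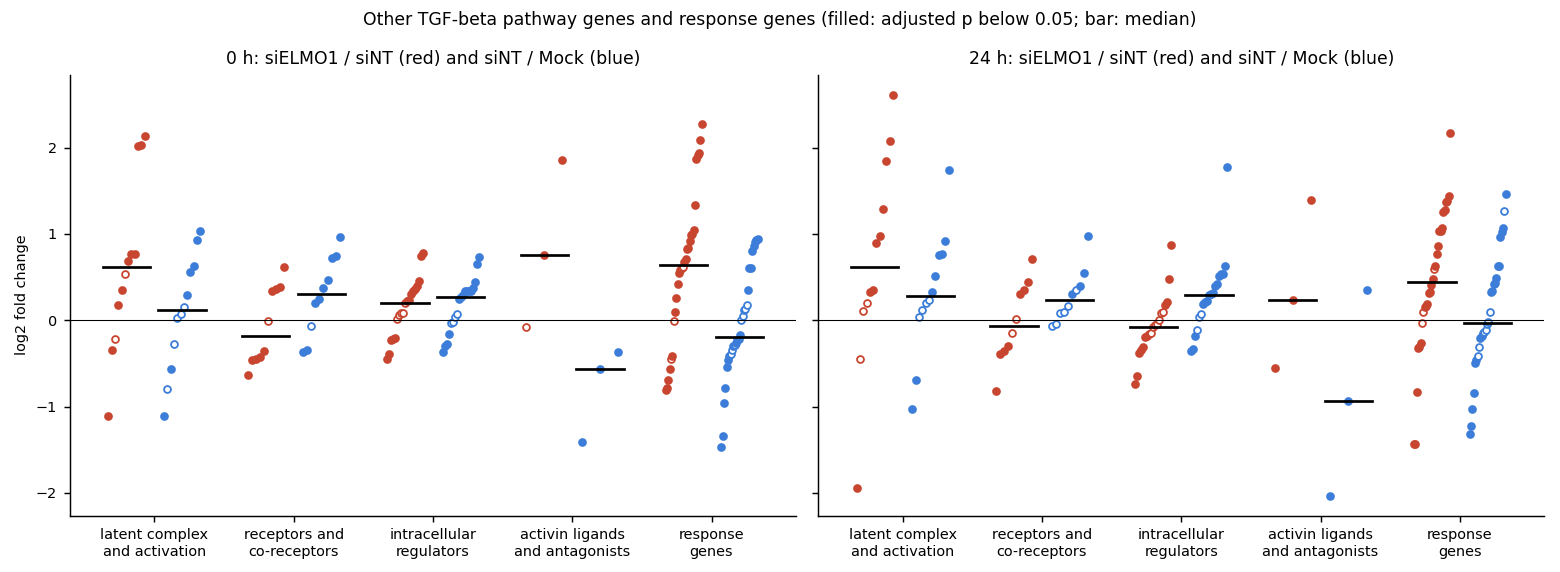
Log2 fold change of each tested gene of 4 groups of other TGF-beta pathway genes and of the TGF-beta response genes, at 0 h (left) and 24 h (right), for siELMO1 against siNT (red) and siNT against Mock (blue); filled points passed adjusted p under 0.05, and bars are medians. Both comparisons share the siNT libraries. Medians of the latent complex, activin (3 genes) and response groups lie above 0 for siELMO1 against siNT at both times. For siNT against Mock, medians of the latent complex, receptor and intracellular groups lie above 0 at both times.

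Over the 18 libraries the range of condition means on the log2 CPM scale was widest for LTBP1 (3.09), then TGFB2 (2.08) and TGFBR2 (1.93), and narrowest for SMAD4 (0.34). As a description only, the genes whose log2 CPM followed LTBP1 most closely were CTSB (Pearson r = 0.980), EFEMP1 (0.979) and EDN1 (0.978). Those closest to TGFB2 were ADAM9 (0.957), CNN2 (0.933) and LGR4 (0.932), and those closest to TGFBR2 were AKT2 (0.960), ARF3 (0.956) and XPNPEP1 (0.954). These values are over 18 libraries that share 6 conditions.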

How the data were processed

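Stranded mRNA libraries of 18 samples (6 conditions, 3 libraries each) were sequenced. The authors aligned the reads to GRCh38 with STAR, quantified GENCODE transcripts with StringTie and converted coverage to the estimated count matrices of genes and transcripts that they deposited, with 1 column for each library and no scaling. The read length used in that conversion and its use of strand were not given in the sources used here. Conversion from coverage rounds and rescales reads, so sampling noise is approximate.

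Genes with at least 100 counts in total and at least 1 CPM in 1 library were tested (15167 of 62754; transcripts likewise) with edgeR 4.0.16 in R 4.3.3, by the quasi-likelihood test with TMM factors and 1 coefficient for each condition over all 18 libraries; siELMO1 and siNT were compared with Mock and each other at each time, 24 h with 0 h in each transfection, and these responses by an interaction term. P-values were adjusted by Benjamini-Hochberg over all genes or transcripts tested and called under 0.05; intervals are 95%. SE is the log2 fold change over the square root of F. The common biological coefficient of variation was 12.2%. Scripts were tested on simulated data.

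The members and lists were chosen with earlier results of these data known. Named were all 10 members, ELMO1, and up to 3 called genes per list and comparison with the largest change, a mean of at least 1 CPM and no overlap of libraries; for the 3 members with the widest range, the 3 genes of highest correlation (log2 of CPM plus 0.5); and transcripts with at least 10% of a gene's counts. THBS1, LRRC32 and other list genes are described only in some of the comparisons for which the rule names them. A further list gene that the rule names is not reported here. Alternatives were DESeq2 1.42.0, limma 3.58.1 (voom), other scalings and filters, only the groups compared, a replicate block, each library left out in turn and, chosen after seeing the data, siELMO1 at 0 h by library 1 alone.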

Additional observations from a re-analysis of the deposited data

Results flagged for a closer look

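The response to poly(I:C) differed between transfections by an interaction term for 13 values of the 10 genes, each given as the difference between log2 fold changes. Between siELMO1 and siNT the differences were 0.89 for SMAD3, 0.68 for TGFBR2, 0.29 for SMAD4, -0.36 for TGFBR1 and -0.75 for TGFB1. Of all genes tested, 16.7% had a more positive response there and 17.8% a more negative one. The calls of SMAD4 and TGFBR1 were lost under at least 1 alternative. Between siNT and Mock they were 1.05 for TGFBR1, 0.47 for TGFB1, -0.29 for SMAD3 and -0.90 for TGFBR2. The shares of all genes tested were 14.9% more positive and 16.0% more negative. Between siELMO1 and Mock they were 0.69 for TGFBR1, 0.59 for SMAD3, -0.22 for TGFBR2 and -0.28 for TGFB1. The shares of all genes tested were 13.8% more positive and 14.6% more negative. Here the call of TGFBR2 was lost without any 1 of 12 libraries and that of TGFB1 without any 1 of 8. Both were also lost under several other settings. These contrasts share libraries with each other, and siELMO1 against siNT and siNT against Mock share those of siNT with opposite sign.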

How the results depend on the processing

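Of 120 member values (10 genes in 12 comparisons), 79 were called; 61 of these stayed past the threshold under every alternative run, 18 were lost under at least 1, and 0 changed sign. Of the uncalled values, 12 passed under at least 1 alternative. The number of members called for the difference in response between siELMO1 and Mock was 4, and 2 with RLE size factors, library totals, no filter, only the groups compared, or siELMO1 at 0 h by library 1 alone; with single libraries left out it was 2 to 5. Member transcripts called at 0 h were 3 against siNT and 5 with limma-voom (3 to 5 with single libraries left out), and 5 against Mock and 8 with limma-voom; against Mock at 24 h they were 7, and 4 with no filter. For these changes the cause was not tested.

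The values that changed sign were all uncalled. TGFBR2 at 24 h against 0 h in siNT was 0.0077, and -0.0032 with DESeq2, -0.0032 with RLE size factors, -0.037 with upper-quartile factors, -0.030 with library totals, -0.0025 with no filter and -0.0063 with only the groups compared (-0.013 to 0.021 with single libraries left out). SKIL in siELMO1 against siNT at 0 h was -0.013 with library totals and -0.014 with no filter (-0.010 to 0.031). With library totals SMAD4 at 24 h against 0 h in Mock was -0.031, and the difference in response was -0.0013 for TGFBR3 between siELMO1 and siNT and 0.025 for LTBP1 between siNT and Mock (-0.60 to 0.19). With library 1 alone for siELMO1 at 0 h, TGFB2 against siNT at 0 h was -0.11 (-0.026 to 0.35), and the response difference of SMAD2 between siELMO1 and siNT 0.0059. With single libraries left out, SKIL at 24 h was -0.10 to 0.14 in siELMO1 against Mock and -0.20 to 0.018 against siNT, and LTBP1 at 24 h against 0 h in siELMO1 was -0.038 to 0.32. Differences in response were then -0.22 to 0.36 for TGFB2 between siELMO1 and Mock, -0.49 to 0.080 between siNT and Mock, -0.010 to 0.21 for TGFBR3 between siNT and Mock, and -0.21 to 0.0097 for SKIL between siELMO1 and siNT.

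Library totals moved the median of all genes at 24 h against 0 h in Mock by -0.12. The share of higher calls among all genes then changed from 55.5% to 43.9% (siELMO1 against Mock at 0 h), from 50.9% to 37.9% (24 h against 0 h in Mock), and for the differences in response from 48.6% to 60.3% (siELMO1 and Mock) and from 48.3% to 64.7% (siNT and Mock). The difference between siELMO1 and Mock had 59.2% with no filter and 61.8% with library 1 alone.

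The labels number libraries 1 to 3 in each condition without saying that a number marks a shared culture or day. Deviations of same-numbered libraries correlated by -0.28 to 0.42, and only Mock and siNT at 24 h had all 3 above 0.1, so the libraries were not taken as paired. With the replicate block, TGFB1 in siNT against Mock at 0 h (-0.13, adjusted p = 0.0423) and the response differences between siNT and Mock of SMAD4 (-0.19, adjusted p = 0.0466) and SKIL (0.34, adjusted p = 0.0209) passed, and no call of a member was lost. TGFB2, with 1.56 to 16.5 CPM over the libraries, had the lowest counts of the 10 genes.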
